A study of Mus musculus with 2 samples.

Results

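The outer tissue of an old mouse ovary section was set against its inner tissue in Slide-seq data, an assay which places a frozen section over barcoded beads and reads the RNA that each bead caught together with its position. The tissue was cut into square bins of 70 position units, and bins with at least 500 counts were kept. The centre was the median bin in x and in y. The third of kept bins farthest from it (the outer area) held 300 bins and was compared with the third nearest to it (the inner area), also 300 bins, out of 884 kept bins in the section and 2190 in the series. The bins were chosen by position and total count, and no gene entered the choice.

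The study compared ovary sections of old and young C57BL6/J female mice, and 1 library per age was analysed here. The old section came from a female of about 14 months and the young section, used below for side-by-side values, from a female of 2 months. No treatment or modified allele is stated for either. Per the labels' protocols, sections of 10 µm were cut from 2 females per age and were picked for holding several oocytes in the plane, so neither section was a random cut of its ovary. No replicate section stood behind any value, so no test was made, and each interval is a 95% interval for counting error only. Whether counts are molecules or reads is not given in the sources used here, and PCR copies among them would make these intervals too narrow.

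The mammalian ovary is covered by a single sheet of surface epithelium. Beneath it lies a cortex with follicles and corpora lutea, and the medulla at the centre carries the larger blood vessels and stroma. After the surge of luteinising hormone, granulosa cells of a follicle about to ovulate remodel their matrix, and after ovulation the follicle becomes a steroid-producing corpus luteum. In aged mouse ovaries, macrophages that have taken up lipid and debris, some of them multinucleated, are known to gather in the stroma.

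The old section had 2348768 counts on 10267 beads with counts, of which kept bins held 97.7%. The outer area had 850803 counts and the inner area 646227, with medians of 2092 and 1862 counts per bin and 10 beads per bin in each. Mitochondrial genes took 1.25% of outer and 1.50% of inner counts, and ribosomal protein genes 1.90% and 1.96%. A bin held several cells or parts of cells, and a lower level in a bin cannot tell fewer cells of a type from less RNA per cell. Levels are CPM, each area's summed counts scaled to a common total. No bead barcode with counts was shared between the old and young libraries.

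Distance from the centre was only partly distance from the ovary's surface. The unit of the bead positions is not stated. Distances are therefore counted in bead spacings, where 1 spacing is the median gap between neighbouring beads. A bin was 7.08 spacings wide, the inner area lay within 71.2 spacings of the centre and the outer area from 101 spacings outwards. Of the outer bins, 102 touched the outer border of the tissue, 28 touched the margin of the bead array, 13 touched an enclosed gap of low-count bins, 154 touched none of these and 3 lay apart from all other kept bins. Of the inner bins, 91 touched an enclosed gap, 7 the outer border and 202 neither. The gap lay near the centre, so the inner area also had a border of its own. The last bin inside the outer area lay 14.3 bins from the centre and the next one 14.2, and 161 bins lay within 1 bin of that limit. For the inner area these distances were 10.05 and 10.2 bins, with 128 bins within 1 bin of the limit.

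**Figure D1:**
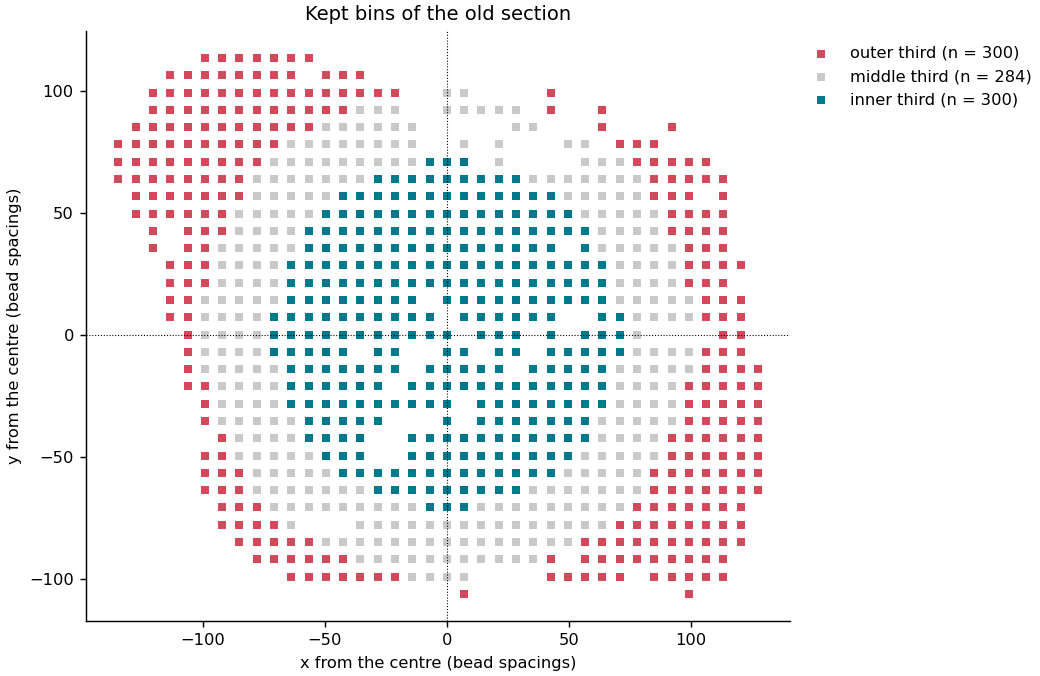
Kept bins of the old section by distance from the centre, with x and y in bead spacings from the centre. Outer bins are red (n = 300), inner bins blue-green (n = 300) and middle bins grey (n = 284), and the 3 bins apart from the tissue are left out. The lines divide the section into 4 quadrants, and the outer bins crowd into the corners of low x and high y and of high x and low y.

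Because the section was longer along 1 diagonal, its outer bins were unevenly spread over the 4 quadrants around the centre. The quadrant of high x and low y held 97 outer bins and 50.9% of outer counts, that of low x and high y 115 bins and 25.1%, that of low x and low y 42 bins and 12.6%, and that of high x and high y 46 bins and 11.5%. Pooled values therefore lean on 1 quadrant, and values by quadrant are given below. Quadrants are pieces of 1 section, not replicates.

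A gene counted as measured with at least 50 counts over both areas, which 6146 genes reached. Of these, 722 (11.7%) were at least 1.5-fold higher and 599 (9.75%) at least 1.5-fold lower in the outer area, and the median outer/inner ratio was 0.998. The interval lay wholly above 1 for 588 of the higher genes and wholly below 1 for 483 of the lower ones. At least 3-fold differences were fewer, with 67 genes higher and 27 lower. In 285 of the higher and 237 of the lower genes, the outer bins stood on the called side of the inner bins in all 4 quadrants. Over all measured genes, outer bins stood above inner bins in all 4 quadrants in 559 (9.095%) and below them in 463 (7.53%). Every outer quadrant was above every inner quadrant in 86 of the higher genes and in 118 of all measured genes, and below every inner quadrant in 91 of the lower genes and in 123 of all. Without the quadrant of high x and low y, 307 genes (7.15%) were higher and 285 (6.64%) lower, of 4292 measured. Of the called genes 54.7% were higher, and with TMM scaling in place of totals 64.8%. Counts of list members past 1.5-fold, given below, are to be read beside the shares of 11.7% higher and 9.75% lower.

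The gene lists fell into 3 main spatial patterns. Keratins and other surface epithelium genes were high along the outer rim, and their outer bins were above their inner bins in all 4 quadrants. Periovulatory and glycolytic genes were high in 2 rounded patches in the quadrants of low y. Macrophage genes were high around the gap near the centre, and MHC class II genes were high there and in part of the outer area. The maps of list levels show these 3 patterns together with a body of high steroidogenic signal in the quadrant of low x and high y, which crosses the limits of all areas.

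**Figure D2:**
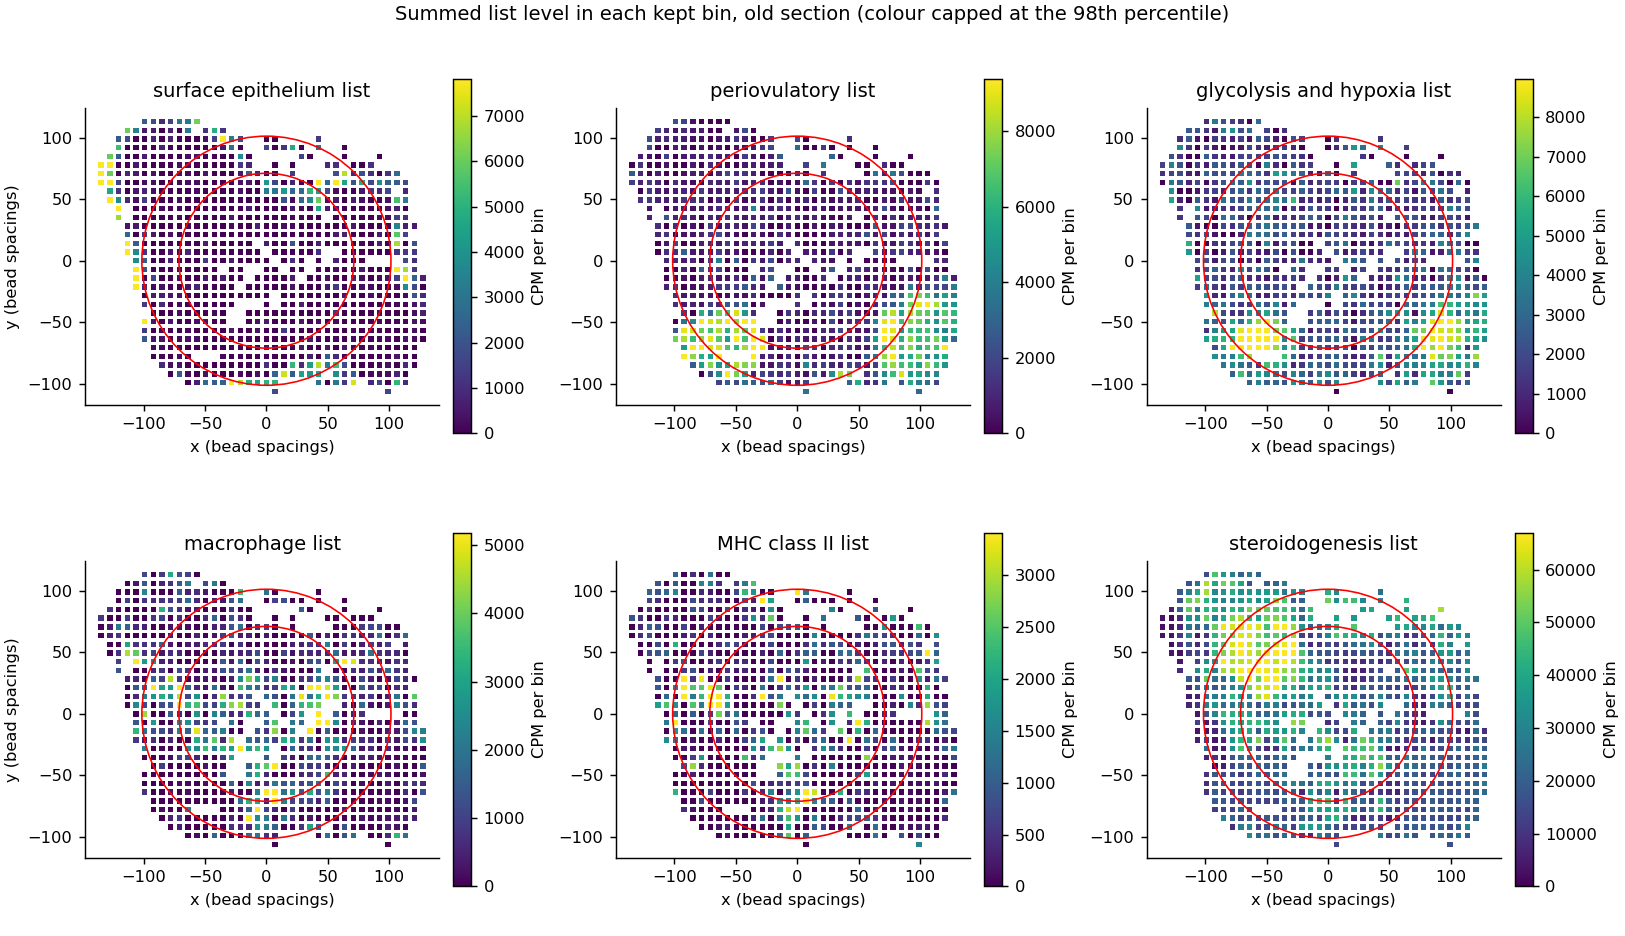
Summed level of 6 gene lists in each kept bin of the old section, in CPM of the bin's counts, with x and y in bead spacings. The red circles mark the limits of the inner area (71.2 spacings) and the outer area (101 spacings), each colour scale is capped at its 98th percentile, and the 3 bins apart from the tissue are left out. Surface epithelium signal follows the rim, periovulatory and glycolytic signal fills 2 patches at low y, and macrophage signal lies around the gap in the centre.

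The surface epithelium list, of keratins, uroplakins and adhesion molecules that mark the sheet covering the ovary, stood at 876 CPM in outer and 279 CPM in inner bins, a ratio of 3.14 (2.67 to 3.72). Each of the 6 measured members passed 1.5-fold on the higher side, beside 11.7% of all measured genes, and their median ratio was 3.27. The other members had under 50 counts over both areas; none of them was at 0 in both. By quadrant the list had 1526 CPM in outer and 181 in inner bins at low x and high y, 1433 and 750 at high x and high y, 927 and 88.8 at low x and low y, and 416 and 119 at high x and low y. Outer bins were thus above inner bins in each quadrant, and least so at high x and high y.

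Keratin 19 (Krt19), an epithelial intermediate filament protein, had 225 CPM in outer and 41.4 in inner bins at low x and high y, 195 and 132 at high x and high y, 206 and 19.0 at low x and low y, and 76.3 and 6.97 at high x and low y. Its outer bins were above its inner bins in all 4 quadrants, with a pooled ratio of 2.90 (1.95 to 4.42). Epcam, an epithelial cell adhesion molecule, had the highest ratio of the list's measured members at 4.37 (2.55 to 7.96). The galectin gene Lgals7 had 176 CPM in outer and 44.9 in inner bins, a ratio of 3.93 (2.63 to 6.07). Krt7, Krt18 and the uroplakin gene Upk1b had ratios of 3.54, 3.00 and 2.54, and each was higher in all 4 quadrants.

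Within the outer area the epithelial signal was highest at the rim. Outer bins at the outer tissue border had 2412 CPM of the list, outer bins at an enclosed gap 2378, outer bins at the array margin, where the tissue was cut off by the array, 669, and outer bins touching no border 392. Inner bins at the outer border had 529 CPM on 4 counts, inner bins at the gap 165 and the other inner bins 310. The rim of the gap at the centre therefore did not carry the level of the outer rim. When bins were ranked by depth from the outer tissue border, with enclosed gaps filled, the outer/inner ratio of the list was 16.7. Without the outer bins that touch a bin that was not kept it was 1.41, and Upk1b then had a ratio of 0.790.

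In bins thinned to 500 counts each, so that depth was equal, 33.3% of outer bins (28.0 to 39.0, exact Clopper-Pearson interval) and 8.33% of inner bins (5.46 to 12.1) held a count of the list. Unthinned these shares were 64.3% and 23.3%. The 30 richest outer bins held 52.5% of the list's outer counts. In 5 rings of nearly equal bin number from the centre outwards, the list had 120, 397, 356, 744 and 933 CPM.

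**Figure D3:**
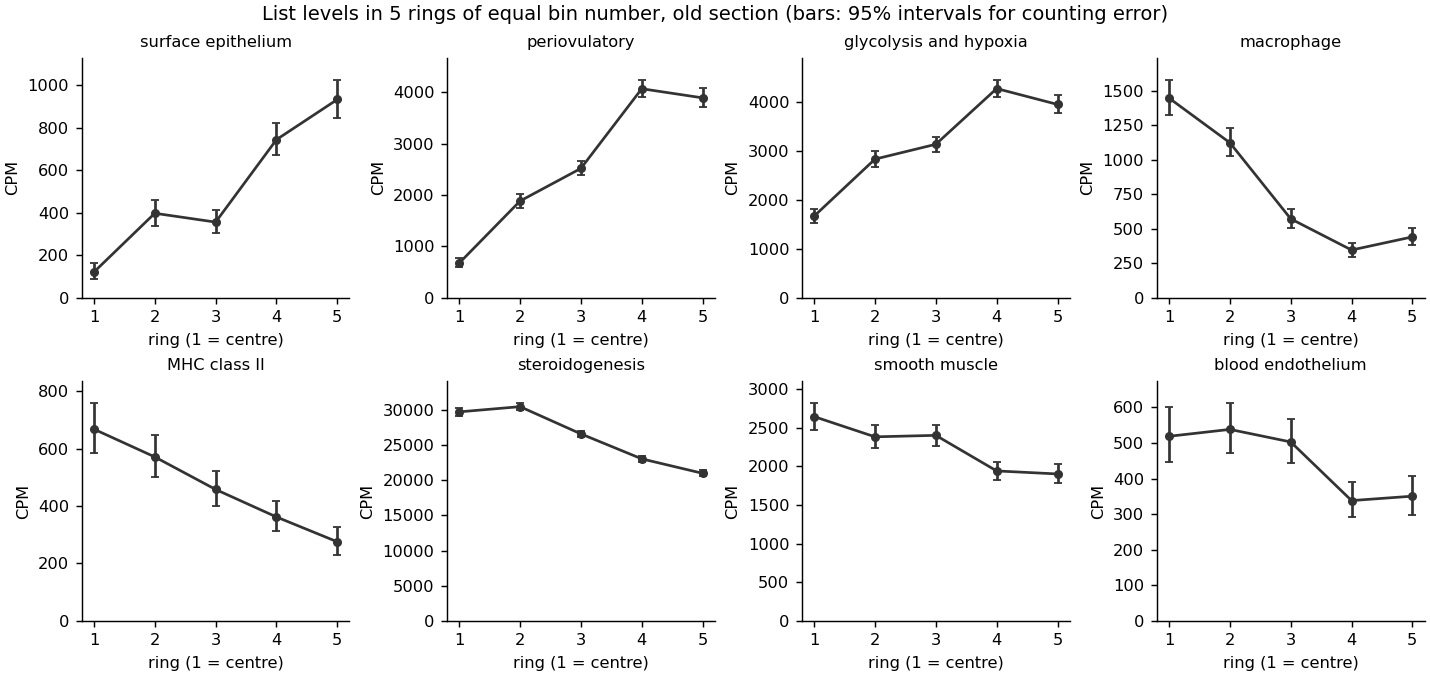
Summed level (CPM) of 8 gene lists in 5 rings from the centre (ring 1) to the edge (ring 5) of the old section, with 95% intervals for counting error. Surface epithelium had 120 CPM in ring 1 and 933 in ring 5, and macrophage 1447 in ring 1 and 441 in ring 5.

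Genes that granulosa cells switch on around ovulation were also high in the outer area. The periovulatory list stood at 4012 CPM in outer and 1128 CPM in inner bins, a ratio of 3.56 (3.28 to 3.86), and each of its 4 measured members passed 1.5-fold on the higher side, with a median ratio of 4.04. Without Adamts1, its most abundant member, the ratio was 2.41. The other 8 members had under 50 counts over both areas. The list was not high all round the edge. It had 5989 CPM in outer and 746 in inner bins at high x and low y, 5730 and 2468 at low x and low y, 655 and 756 at low x and high y, and 716 and 572 at high x and high y. The outer bins of both quadrants of low y were high, and of the inner bins only those of low x and low y were. The quadrant of high x and low y alone held 75.9% of the list's outer counts. That quadrant was also the deepest, with 432639 outer counts in 97 bins, against 143424 inner counts in 73 bins, and the part of depth in these levels was not tested. With every bin thinned to 500 counts, 57.7% of outer and 34.0% of inner bins of the whole section held a count of the list. Unthinned these shares were 81.0% and 72.3%.

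Adamts1 encodes a protease that cuts versican in the matrix of the ovulating follicle. It had 3661 CPM in outer and 216 in inner bins at high x and low y, 3595 and 1339 at low x and low y, 150 and 155 at low x and high y, and 164 and 112 at high x and high y. Both quadrants of low y were far above the others in the outer area, and the pooled ratio was 5.30 (4.68 to 6.01) on 2016 outer and 289 inner counts. Vcan, which encodes versican itself, a large proteoglycan, had 3340 CPM in outer and 174 in inner bins at high x and low y and 2285 and 914 at low x and low y. At high x and high y Vcan was lower in outer bins, with 154 CPM in outer and 401 in inner bins. Its pooled ratio was 4.99 (4.39 to 5.70). The transcription factor genes Runx1 and Cebpb, both known to be induced in granulosa cells by luteinising hormone, had ratios of 2.78 and 2.05. Endothelin 2 (Edn2), a peptide linked to follicle contraction at ovulation, had 48 outer and 4 inner counts, a ratio of 9.11 (3.34 to 34.8).

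Spp1, which encodes the secreted glycoprotein osteopontin, headed the ranking of genes by the lower limit of the outer/inner ratio, with 1215 CPM in outer and 116 CPM in inner bins, a ratio of 10.5 (8.28 to 13.4). By quadrant it had 1856 CPM in outer and 146 in inner bins at high x and low y, 1863 and 178 at low x and low y, 98.3 and 82.8 at low x and high y, and 113 and 65.8 at high x and high y. Outer bins were above inner bins in each quadrant, by a small margin in those of high y. Spp1 differed from Adamts1 in its ring profile. From the centre outwards Spp1 had 94.6, 136, 198, 681 and 1569 CPM, whereas Adamts1 had 195, 947, 1334, 2462 and 2250 CPM. Spp1 was thus highest in the outermost ring and Adamts1 in the fourth.

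**Figure D4:**
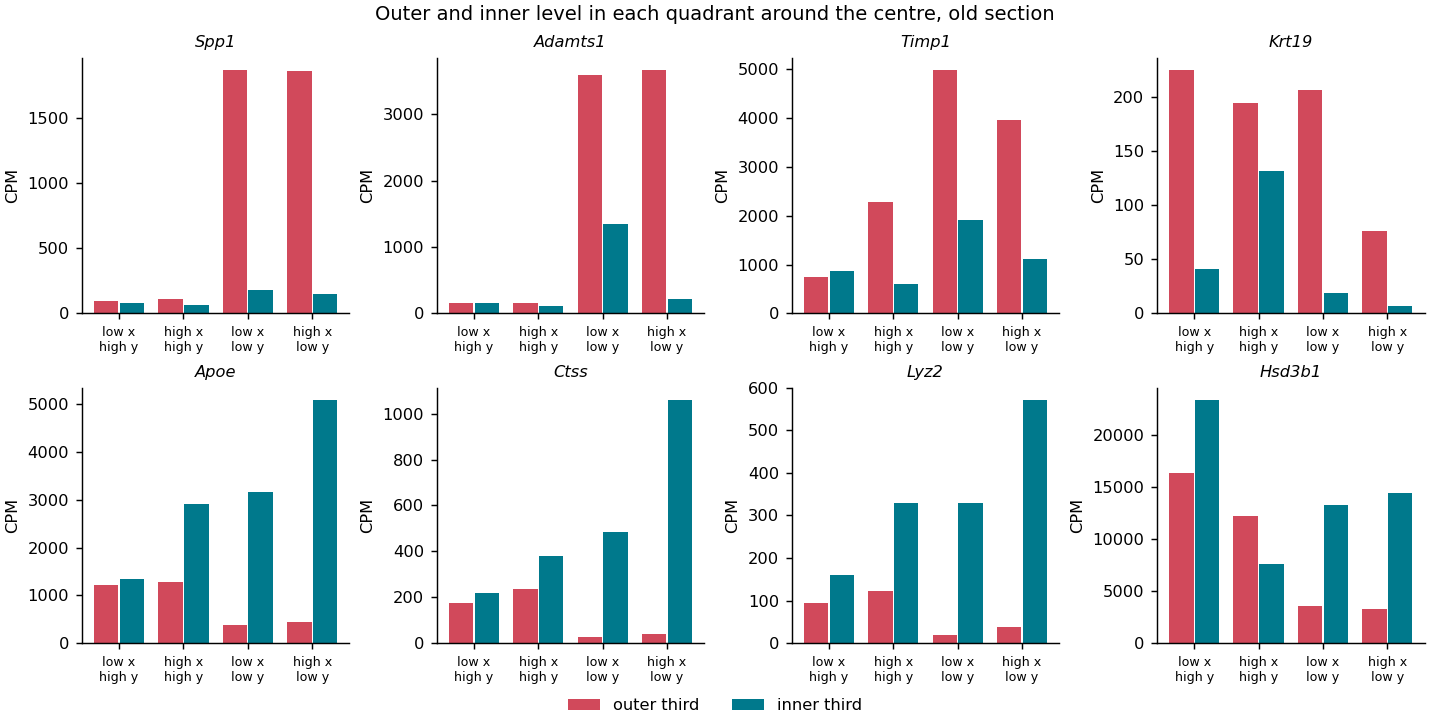
Level (CPM) of 8 genes in the outer (left bar, red) and inner (right bar, blue-green) bins of each quadrant of the old section. Spp1, Adamts1 and Timp1 were highest in outer bins of the quadrants of low y, Krt19 was higher in outer bins of all 4 quadrants, and Apoe, Ctss and Lyz2 were lower in outer bins of all 4.

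The other genes among the 15 with the highest lower limits had ratios between 4.09 (Rgcc, a cell cycle regulator) and 9.37 (Kl, the gene of the ageing-linked protein klotho). They included the gene of tissue factor (F3), which starts blood clotting, with 347 CPM in outer and 57.3 in inner bins, a ratio of 6.06 (4.29 to 8.77). Cxcr4, a chemokine receptor, had a ratio of 6.12 (3.74 to 10.6), and Slc7a11, which carries cystine into cells, had 6.77 (3.62 to 14.0). Bves, which encodes a Popeye-domain membrane protein, had 5.71, the homeobox gene Rhox8 had 4.80 and Prkg2, a cGMP-dependent kinase, had 5.00. Parm1, Ier3 and Vasn, which encodes the TGF-beta-binding protein vasorin, had 6.08, 5.32 and 6.58. Of all 15 genes, 6 were higher in outer bins in all 4 quadrants (Spp1, F3, Kl, Ier3, Vasn and Rgcc), 8 in 3 quadrants and Slc7a11 in 2.

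Glycolytic and hypoxia-linked genes were high in the same patches. The list stood at 4098 CPM in outer and 2145 CPM in inner bins, a ratio of 1.91 (1.80 to 2.04). Of its 11 measured members, 9 passed 1.5-fold on the higher side and none on the lower, with a median of 1.92. By quadrant the list had 5804 CPM in outer and 1987 in inner bins at high x and low y, 4092 and 2804 at low x and low y, 2057 and 1717 at high x and high y, and 1582 and 2061 at low x and high y. The quadrant of high x and low y held 72.0% of its outer counts, and at low x and high y the outer bins were below the inner ones.

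Ldha, the muscle-type subunit of lactate dehydrogenase, had 1121 CPM in outer and 265 in inner bins at high x and low y, 955 and 355 at low x and low y, 481 and 276 at high x and high y, and 197 and 228 at low x and high y. Its pooled ratio was 2.85 (2.42 to 3.38), and its outer bins were above its inner bins in 3 of 4 quadrants. Pgk1, a phosphoglycerate kinase, had a ratio of 3.14 (1.76 to 5.94) on 62 outer and 15 inner counts and was higher in all 4 quadrants. Bnip3, a mitophagy gene known as a target of hypoxia-inducible factor, had a ratio of 3.08 (2.17 to 4.44). Bnip3 rested on 1 quadrant: it had 333 CPM in outer and 69.7 in inner bins at high x and low y, and its ratio without that quadrant was 0.853. Aldoa and Hk1 had ratios of 1.38 and 1.27, under the 1.5-fold limit.

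The start regions of 2 of these genes are shown because hypoxia-inducible factor is known to bind the letters ACGTG or GCGTG. The 2 were chosen for their high number of matches, so they need not be typical of the list. RefSeq windows (GRCm38.p6) of 300 bases around the annotated start were found for 8 of the 9 members that were at least 1.5-fold higher, and 7 of the 8 held the letters on either strand. Of the windows of 27025 genes, 46.7% held them. The sequences run 5′ to 3′ on the gene's strand, and capitals mark each match, including the reverse complements CACGT and CACGC, 7 in Ldha and 5 in Bnip3. The run CACGTG holds ACGTG and CACGT and was counted once on each strand. Ldha lies on the plus strand at chr7:46845554-46845853, and Bnip3 on the minus strand at chr7:138909457-138909756.
Ldha: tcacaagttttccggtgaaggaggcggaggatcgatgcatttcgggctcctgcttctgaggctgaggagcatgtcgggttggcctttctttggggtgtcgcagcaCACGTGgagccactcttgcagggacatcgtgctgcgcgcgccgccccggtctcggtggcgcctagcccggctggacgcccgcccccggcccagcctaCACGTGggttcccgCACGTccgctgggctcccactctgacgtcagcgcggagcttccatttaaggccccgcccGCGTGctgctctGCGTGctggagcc
Bnip3: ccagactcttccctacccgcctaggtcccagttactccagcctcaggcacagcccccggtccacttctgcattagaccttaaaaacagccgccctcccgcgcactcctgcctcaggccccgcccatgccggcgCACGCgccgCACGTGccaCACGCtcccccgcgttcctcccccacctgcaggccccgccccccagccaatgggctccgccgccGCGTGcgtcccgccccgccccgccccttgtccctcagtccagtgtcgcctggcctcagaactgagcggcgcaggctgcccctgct
A match of letters is a description of the window and not a bound site, and no binding was measured.

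Matrix genes split. Of 22 measured members of the collagen and matrix list, 3 were at least 1.5-fold higher and 10 at least 1.5-fold lower in the outer area. The summed list had a ratio of 1.28 (1.25 to 1.33), while the median member had 0.799, so the 2 summaries point opposite ways. The higher members were Vcan, Timp1 and Lox. Timp1, an inhibitor of matrix metalloproteinases, had 3969 CPM in outer and 1123 in inner bins at high x and low y, 4981 and 1916 at low x and low y, 2282 and 605 at high x and high y, and 754 and 859 at low x and high y. Timp1 was higher in outer bins in 3 quadrants, with a pooled ratio of 2.77 (2.55 to 3.02). Lox, which crosslinks collagen and elastin, had a ratio of 2.33 (1.52 to 3.68) and was higher in all 4 quadrants. The lower members were led by Col6a3, a type VI collagen chain, with 0.426, and by the small proteoglycan genes Dcn (decorin) and Bgn (biglycan), with 0.446 and 0.567. Outer bins were above inner bins in 2 quadrants for Dcn, in 1 for Bgn and in none for Col6a3. Sparc, the list's most abundant member, had 3456 CPM in outer and 2982 CPM in inner bins, a ratio of 1.16.

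Macrophage genes ran the other way. The macrophage list stood at 393 CPM in outer and 1317 CPM in inner bins, a ratio of 0.298 (0.262 to 0.339). Of its 16 members, 7 were measured. Each of these 7 passed 1.5-fold on the lower side, beside 9.75% of all measured genes, with a median of 0.344. Csf1r had a ratio of 0.612 on 29 outer and 36 inner counts, with an interval of 0.362 to 1.03. Outer bins were above inner bins in 2 quadrants for Csf1r and C1qc, and in none for Lyz2, Ms4a7, C1qa and C1qb. By quadrant the list had 229 CPM in outer and 2029 in inner bins at high x and low y, 169 and 1421 at low x and low y, 702 and 859 at low x and high y, and 686 and 1118 at high x and high y. For the summed list, outer bins were below inner bins in each quadrant, by the widest margin in the 2 quadrants of low y. Cd163, a scavenger receptor of tissue macrophages, had no count in either area.

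Of the 15 genes with the lowest upper limits, 14 were lower in outer bins in all 4 quadrants, and Adh1, an alcohol dehydrogenase, in 3. Gpnmb, a glycoprotein of lysosome-rich macrophages, had 31 outer and 153 inner counts, a ratio of 0.154 (0.101 to 0.228). Lyz2, the lysozyme of myeloid cells, had 37.0 CPM in outer and 572 in inner bins at high x and low y, 18.7 and 330 at low x and low y, 93.6 and 160 at low x and high y, and 123 and 329 at high x and high y. Its pooled ratio was 0.177 (0.127 to 0.241). Ctss, the lysosomal protease cathepsin S, had 41.6 CPM in outer and 1060 in inner bins at high x and low y, and 173 and 218 at low x and high y. The inner bins of high x and low y were its highest. The complement gene C1qa had 96.4 CPM in outer and 376 CPM in inner bins, a ratio of 0.256 (0.197 to 0.330). Mpeg1, Ms4a7 and Lilr4b, all expressed by macrophages, had ratios of 0.169, 0.185 and 0.198.

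Several of the 15 handle lipid. Apoe, the apolipoprotein that carries cholesterol, was the most abundant of them, with 434 CPM in outer and 5090 in inner bins at high x and low y, 384 and 3166 at low x and low y, 1212 and 1336 at low x and high y, and 1269 and 2914 at high x and high y. Its pooled ratio was 0.241 (0.220 to 0.264) on 612 outer and 1930 inner counts, and its margin was small at low x and high y. The phospholipid transfer protein gene Pltp, the cholesterol exporter gene Abcg1 and Pla2g7, which breaks down platelet-activating factor, had ratios of 0.172, 0.177 and 0.186. Gas6, a ligand through which phagocytes bind dying cells, had 403 CPM in outer and 1207 CPM in inner bins, a ratio of 0.334 (0.293 to 0.380). Tenm4, a teneurin adhesion protein, and the transcription factor gene Tbx3 had 0.290 and 0.180.

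The macrophage signal was denser beside the gap than in the rest of the inner area. Inner bins at the gap had 2081 CPM of the list, the other inner bins 1094 and inner bins at the outer border 397. Outer bins at the outer border had 586 CPM and outer bins touching no border 316. Inner bins that touched no border were thus also above outer bins that touched none. From the centre outwards the 5 rings had 1447, 1123, 572, 345 and 441 CPM. In bins thinned to 500 counts, 23.7% of outer and 43.3% of inner bins held a count of the list, and unthinned 55.0% and 74.7%. The red blood cell list, of haemoglobin and related genes, had 594 CPM in outer and 845 CPM in inner bins, with 2537 CPM in inner bins at the gap. That level rested on 1 inner bin at the gap, in the quadrant of low x and low y, which held 365 of the 546 inner counts. Without it, an alternative chosen after seeing the data, the list had 281 CPM in inner bins and 127 CPM in inner bins at the gap. Its outer/inner ratio was then 2.11 in place of 0.703. No outer bin was left out to match, although the 30 richest outer bins held 86.1% of the list's outer counts. Without the same inner bin, the macrophage list had 2087 CPM in inner bins at the gap, and its outer/inner ratio was 0.298.

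Antigen-presenting genes of MHC class II ran the same way with fewer counts. The list stood at 315 CPM in outer and 625 CPM in inner bins, a ratio of 0.504 (0.430 to 0.589), and each of its 4 measured members was past 1.5-fold on the lower side, with a median of 0.487. Cd74, the invariant chain, had a ratio of 0.460 (0.348 to 0.606), H2-Aa 0.412 and H2-Ab1 0.574. By quadrant the list had 162 CPM in outer and 788 in inner bins at high x and low y, 159 and 660 at low x and low y, 431 and 523 at low x and high y, and 911 and 566 at high x and high y. At high x and high y the outer bins were above the inner ones. Inner bins at the gap had 879 CPM of the list and inner bins touching no border 548. Outer bins at an enclosed gap had more, 1223 CPM on 36 counts. The list of genes linked to foamy or giant macrophages had a ratio of 1.39 (1.28 to 1.52), but this rested on Spp1. Of its other measured members 4 were at least 1.5-fold lower, among them Gpnmb, the galectin gene Lgals3 (0.544) and the lipase gene Lpl (0.415), and without Spp1 the list's ratio was 0.445.

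The PU box, GAGGAA, is a sequence bound by the myeloid factor PU.1, and a window holding it is shown for Ms4a7, a member of the macrophage list. Windows were found for 4 of the 7 lower members, and 3 of them held the letters on either strand, beside 31.3% of all windows. Ms4a7 lies on the minus strand at chr19:11336097-11336396 of GRCm38.p6, with the match in capitals. This too describes letters only.
Ms4a7: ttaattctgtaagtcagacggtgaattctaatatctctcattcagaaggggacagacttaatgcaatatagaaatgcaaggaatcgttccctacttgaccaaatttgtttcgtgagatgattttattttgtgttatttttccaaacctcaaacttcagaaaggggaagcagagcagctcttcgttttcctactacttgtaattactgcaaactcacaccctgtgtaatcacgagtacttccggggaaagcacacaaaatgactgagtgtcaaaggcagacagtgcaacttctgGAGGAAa

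Steroid-producing tissue was spread through both areas. The steroidogenesis list took 21913 CPM in outer and 30437 CPM in inner bins, a ratio of 0.720 (0.706 to 0.735). Of its 8 measured members 1 was past 1.5-fold on the higher side and 2 on the lower, at a median of 0.907. Over all measured genes 11.7% were higher and 9.75% lower. Hsd3b1, which converts pregnenolone to progesterone, had 16344 CPM in outer and 23347 in inner bins at low x and high y, 3287 and 14426 at high x and low y, 3539 and 13221 at low x and low y, and 12220 and 7564 at high x and high y. Its outer bins were below its inner bins in 3 quadrants and above them at high x and high y, and its pooled ratio was 0.502 (0.487 to 0.518). Hsd17b7, which acts in oestrogen and cholesterol synthesis, had a ratio of 0.342 (0.288 to 0.405). It lay mostly at low x and high y, with 562 CPM in outer and 2040 in inner bins, and without that quadrant its ratio was 1.11. Fdx1, the electron carrier of mitochondrial steroid enzymes, was the higher member with 1.54 (1.44 to 1.66). Cyp11a1, which makes pregnenolone from cholesterol, had 0.855 and Star, which brings cholesterol into mitochondria, 1.02.

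The luteal list was near even, with 6638 CPM in outer and 6786 CPM in inner bins, a ratio of 0.978 (0.940 to 1.02). Of its 10 measured members, only Parm1 was at least 1.5-fold higher and only Lhcgr, the luteinising hormone receptor, at least 1.5-fold lower, with 0.594. These counts are near the shares over all measured genes, 11.7% higher and 9.75% lower. Sfrp4, a secreted Wnt inhibitor and the list's most abundant member, had 1.24 (1.15 to 1.34), and its outer bins were above its inner bins in all 4 quadrants. The cholesterol synthesis list had a summed ratio of 1.09 (1.02 to 1.15). Of its 14 measured members, 4 were past 1.5-fold on the higher and 1 on the lower side, beside the same shares over all measured genes. Its higher members included Fdft1, the squalene synthase gene, with 1.92 (1.14 to 3.35), and the sterol desaturase gene Sc5d was the lower one with 0.609. Without the quadrant of low x and high y, the cholesterol synthesis list had a summed ratio of 1.80, Lhcgr of 1.19 and Sc5d of 1.08. Ranked by depth from any border, the list had 0.628 and Fdft1 0.707.

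Granulosa genes split as matrix genes did. Summed, they had a ratio of 0.9505 (0.894 to 1.01), and of 8 measured ones 3 were higher and 4 lower, at a median of 0.793. The higher ones were the activin subunit gene Inhba (2.36), the nuclear receptor gene Nr5a2 (2.16) and follistatin, Fst (2.06). Each was above inner bins in 2 quadrants only, those of low y. Nr5a2 had 961 CPM in outer and 126 in inner bins at high x and low y, 712 and 381 at low x and low y, 206 and 409 at low x and high y, and 143 and 237 at high x and high y. Without the quadrant of high x and low y, Nr5a2 and Fst had ratios of 0.921 and 0.922, and without bins holding at least 10 Adamts1 counts Inhba had 0.562. The lower ones included the inhibin subunit genes Inha (0.561) and Inhbb (0.577) and the gap junction gene Gja1 (0.542).

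Summed over each list, interstitial, blood endothelium and smooth muscle genes were lower in the outer area, although fewer than all of their measured members passed 1.5-fold. The theca and interstitial list had 706 CPM in outer and 1354 CPM in inner bins, a ratio of 0.522 (0.470 to 0.579). Past 1.5-fold, 1 of its 3 measured genes was lower and none higher, beside 9.75% and 11.7% of all measured genes. The list was carried by the retinoic acid-forming enzyme gene Aldh1a1, with 494 CPM in outer and 1089 in inner bins and a ratio of 0.453 (0.401 to 0.512). Its markers of theca cells proper were near or at 0: Insl3 was not counted in either area and Cyp17a1 had 1 outer and 3 inner counts. Blood endothelium genes had a summed ratio of 0.611 (0.519 to 0.718), and 3 of 5 measured members were lower and none higher, among them the VEGF receptor gene Flt1 (0.321) and Egfl7 (0.531). The smooth muscle list had 0.738 (0.688 to 0.790), with 4 of 9 lower and none higher, led by the smooth muscle myosin gene Myh11 at 0.386 (0.310 to 0.478). Myh11 was lower in outer bins in all 4 quadrants. Tpm1 and Smtn, 2 other members, had ratios of 0.979 and 1.44. Outer bins at the outer tissue border had 2961 CPM of the smooth muscle list and outer bins touching no border 1540, against 2566 in the inner area as a whole. Pericyte genes had a summed ratio of 0.736 (0.570 to 0.949), with 1 of 3 measured members lower. The lymphatic endothelium list had 1.26 (0.956 to 1.67), and its 1 measured member, the podoplanin gene Pdpn, passed 1.5-fold on the higher side, with 1.81.

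A few further lists mixed directions. In the senescence-linked list, Cdkn1a, the p21 cell cycle inhibitor, was 3.49-fold higher (2.34 to 5.37), while 4 of 8 measured members were past 1.5-fold on the lower side, among them the IGF binding protein genes Igfbp5 (0.498), Igfbp4 (0.558) and Igfbp7 (0.580). Cdkn1a had 243 CPM in outer and 34.9 in inner bins at high x and low y, and 30.7 and 39.5 at high x and high y. Its outer bins were above its inner bins in 3 of 4 quadrants. For Igfbp4 and Igfbp5 outer bins were above inner bins in 2 quadrants, and for Igfbp7 in 1. Complement genes had a summed ratio of 0.820 (0.765 to 0.878), and 3 of 7 measured members were lower, among them C2 at 0.522. Outer bins at the outer tissue border had 3114 CPM of the complement list and those at an enclosed gap 4349. Outer bins at the array margin had 1810 and those touching no border 1630, against 2471 in the inner area as a whole.

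Markers of tissue that can adhere to the ovary were counted at low levels. The oviduct epithelium list had 13 outer and 24 inner counts. The adipocyte list ran higher in the outer area, with 295 CPM in outer and 193 CPM in inner bins, a ratio of 1.53 (1.23 to 1.91), and 531 CPM in outer bins at the array margin. It rested on Fabp4, a fatty acid-binding protein gene that blood vessels and macrophages also express, with a ratio of 1.78, and without Fabp4 it was 1.01. Adiponectin (Adipoq), leptin (Lep) and Cidec, defining fat genes, had no count in either area. The list's ratio was 1.09 without the quadrant of high x and low y and 1.04 without bins holding at least 10 Adamts1 counts. Oocyte genes were few in both areas, with 73 outer and 100 inner counts over the list. Most of the section's oocyte counts lay between the 2 areas: from the centre outwards the 5 rings had 30, 155, 411, 49 and 39 counts, and 86.0, 364, 807, 90.0 and 83.8 CPM. The B and plasma cell list had 94 outer and 36 inner counts, a ratio of 1.98 (1.34 to 3.00). Unthinned, 4% of outer and 6.67% of inner bins held any count of it. Without the quadrant of low x and high y that ratio was 0.640, and the oocyte list's ratio, 0.554, was 1.50 without the quadrant of high x and low y.

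How far the contrast depends on the way depth is measured differed between the patterns. When bins were ranked by depth from any border, so that bins around the gap counted as shallow, the ratio for surface epithelium was 13.4. The periovulatory list then had 0.796, glycolysis and hypoxia 0.745, macrophage 1.39 and MHC class II 1.62, each on the other side of 1. Among single genes Adamts1 then had 0.717, Vcan 0.534, Ldha 0.919, Apoe 1.30, Lyz2 1.49 and Cd74 1.62, while Spp1 had 1.60 and Timp1 1.21. With enclosed gaps filled, an alternative chosen after seeing the data, these lists had 1.82, 1.21, 0.455 and 0.867. Each was on the same side as by distance from the centre. In both rankings bins of equal depth were ordered by distance from the centre, so that sameness was partly built in. Without bins holding at least 10 Adamts1 counts, also chosen afterwards, surface epithelium had 5.41, periovulatory 1.71, glycolysis and hypoxia 1.18, macrophage 0.464 and MHC class II 0.816.

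**Figure D5:**
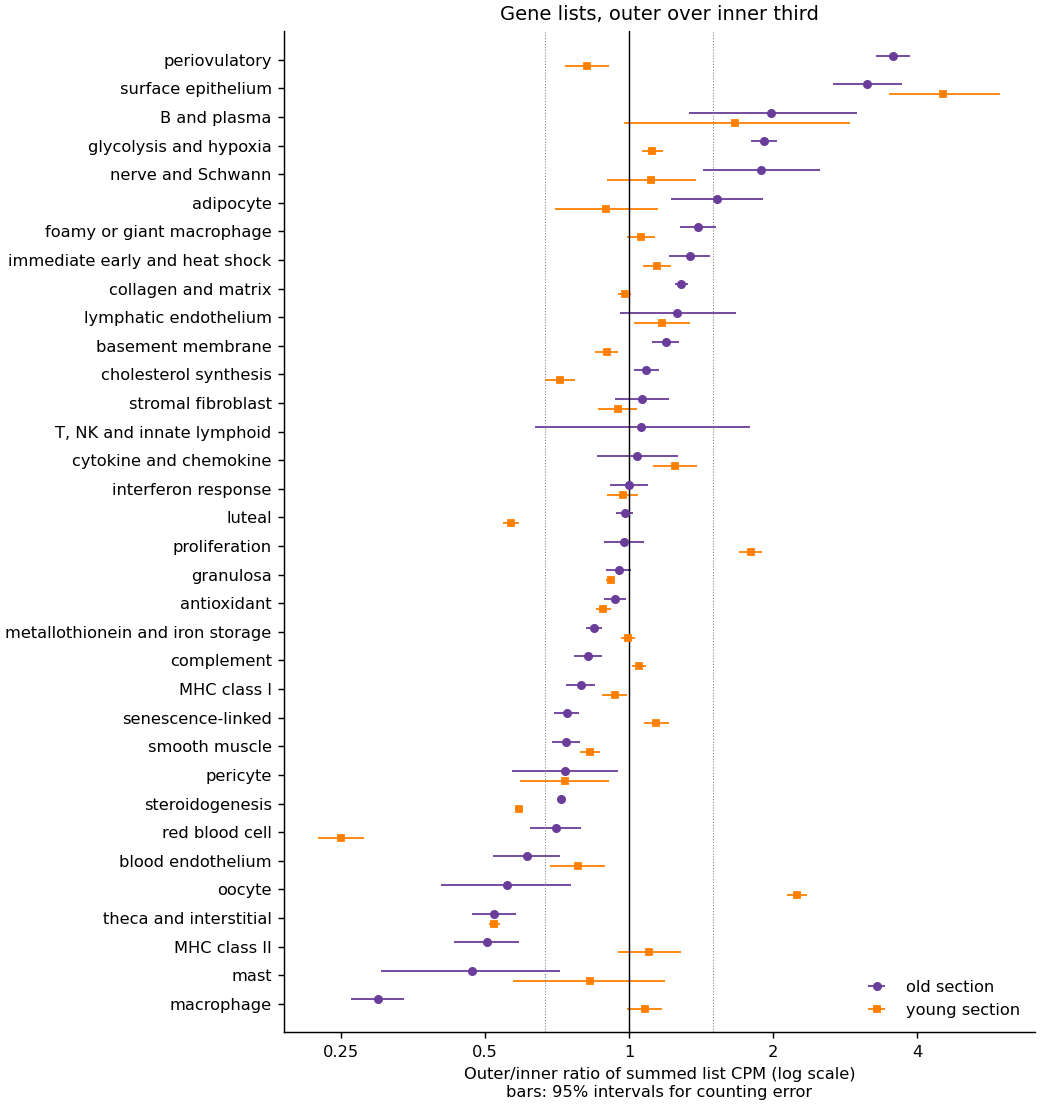
Outer/inner ratio (log axis) of the summed CPM of 34 gene lists with at least 50 counts over both areas, in the old section (purple circles) and the young section (orange squares, for lists with at least 50 counts there), with 95% intervals for counting error and dotted lines at 1.5-fold. Surface epithelium is to the right of 1 in both sections, and macrophage is at 0.298 (old section) and 1.08 (young section).

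The same rule in the young section gave 1306 kept bins. There 926 of 8738 measured genes (10.6%) were at least 1.5-fold higher and 556 (6.36%) at least 1.5-fold lower in the outer area. With 1 section per age, a difference between sections cannot be told apart from a difference between 2 cuts, and it was not tested. The old ratio of the surface epithelium list was 3.14 and the young ratio 4.53 (3.49 to 5.97). The theca and interstitial list had 0.522 (old) and 0.523 (young). Macrophage genes stood at 0.298 in the old section, against 1.08 (0.989 to 1.17) in the young one, and MHC class II genes at 0.504 in the old section, against 1.102 (0.947 to 1.28) in the young one. Periovulatory genes had 3.56 in the old section, against 0.818 (0.735 to 0.910) in the young one. The steroidogenesis list was lower in outer bins of both sections, at 0.720 (old) and 0.590 (young), while the luteal list had 0.978 (old) and 0.566 (young).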

How the data were processed

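The authors deposited a table of whole-number counts (genes by beads) and a table of bead positions. Build mm10 is named in the submitters' processing notes, and what aligned or counted the reads, against which annotation, is not given in the sources used here. In the old section the table lists only beads with at least 10 counts. Everything else was computed here with Python 3.11.15, numpy 2.4.6, scipy 1.17.1 and pandas 2.3.3, and figures with matplotlib 3.10.9. Counts were summed over the bins of each area and divided by the area's total (CPM). Outer/inner ratios carry exact conditional binomial intervals, and levels exact Poisson intervals. The ratio script was tested on simulated data. With 1 section per age no test was possible, so genes were called by size, at 1.5-fold, with at least 50 counts over both areas. Spots over tissue were not selected otherwise, and no doublet step applies to bins.

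Named genes were the 15 with the highest lower limit and the 15 with the lowest upper limit of the ratio, at 20 CPM or more in either area, leaving out mitochondrial, ribosomal protein, predicted and clone-named genes. Each list described added its 2 most abundant measured members and, where it had them, its 3 highest and 3 lowest by ratio; a few that this rule names are not reported here. Single genes outside this rule check a tissue label or a list's makeup (Insl3, Cyp17a1, Cd163, Adipoq, Lep, Cidec, Fabp4 and Pdpn) and were chosen after their values were seen. The areas and the 36 gene lists were chosen with earlier results of these data known. Of 18394 gene names in the old table, 16287 matched a RefSeq symbol and 69 a synonym only. Alternatives changed the centre, the bins, the share of bins per area, the measure of depth, the scaling and the minimum count, or left out quadrants or single bins.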

Additional observations from a re-analysis of the deposited data

Results flagged for a closer look

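A few outer/inner ratios were past 1.5-fold in opposite directions in the old and young sections. With 1 section per age the difference was not tested. The oocyte list had a ratio of 0.554 in the old section, on 73 outer and 100 inner counts, and of 2.24 in the young one. Adamts1 had an old ratio of 5.30 and a young ratio of 0.512 (0.307 to 0.837). The young one rested on 27 outer and 48 inner counts, against 2016 and 289 in the old section. Bves, a Popeye-domain membrane protein gene, had 5.71 (old) and 0.521 (young), the latter on 63 outer and 110 inner counts. The activin subunit gene Inhba had 2.36 (old) and 0.600 (young). Fdx1, the electron carrier of mitochondrial steroid enzymes, had 1.54 (old) and 0.607 (young). Pltp, C1qc and H2-Eb1, expressed by macrophages or antigen-presenting cells, ran the other way. Pltp had 0.172 (old) and 1.55 (young, 0.999 to 2.44), C1qc 0.369 (old) and 1.65 (young), and H2-Eb1 0.513 (old) and 1.54 (young). The young macrophage list as a whole had 1.08, with 2 of 13 measured members past 1.5-fold on the higher side and none on the lower. The young MHC class II list had 1.102, with 1 of 4 higher and none lower.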

How the results depend on the processing

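Among lists past 1.5-fold, 3 of 12 stayed on their side of 1 in every alternative run, and among named genes 20 of 83. A ratio is said to have turned where it was past 1.5-fold and the alternative put it on the other side of 1. Of 103 such turns, 59 came from 1 choice, the ranking by depth from any border, in which bins beside the gap near the centre count as shallow. The surface epithelium list stayed above 1 throughout, between 1.41 (without outer bins that touch a bin that was not kept) and 16.7 (by depth from the outer border). With the centre at the mean bin, the ratio that turned was that of the oocyte list (1.04). With the centre at the midpoint of the range of kept bins, the ratios that turned were those of the adipocyte list (0.890), the mast list (2.11), Inhbb (1.71), Inha (1.08), Gja1 (1.15), Lox (0.789), Dcn (1.49), Cd59a (1.05), Cdkn1a (0.792) and Igfbp5 (1.04). With the outer and inner 25% of bins, the ratio that turned was that of Cd36 (1.08). With the outer and inner 50% of bins, the ratio that turned was that of the oocyte list (1.55). With bins ranked by depth from any border, the ratios that turned were those of the oocyte list (1.94), the theca and interstitial list (1.40), the periovulatory list (0.796), the macrophage list (1.39), the MHC class II list (1.62), the mast list (1.97), the glycolysis and hypoxia list (0.745), Adamts1 (0.717), Vcan (0.534) and Bves (0.442). There too, the ratios that turned were those of F3 (0.689), Kl (0.5005), Cxcr4 (0.953), Rhox8 (0.879), Parm1 (0.781), Ier3 (0.641), Edn2 (0.492), Prkg2 (0.640), Rgcc (0.877) and Ctss (1.23). In that ranking, the ratios that turned were those of Lyz2 (1.49), Pltp (1.34), Apoe (1.30), Mpeg1 (1.41), Adh1 (1.19), Pla2g7 (1.11), Tbx3 (1.05), Ms4a7 (2.11), C1qa (1.29) and Gas6 (1.33). By that depth, the ratios that turned were those of Inhba (0.983), Nr5a2 (0.492), Fst (0.739), Aldh1a1 (1.51), Fdx1 (0.830), Fdft1 (0.707), Runx1 (0.632), Bgn (1.28) and Dcn (2.11). In that order of bins, the ratios that turned were those of Mylk (1.21), Myh11 (1.26), Csf1r (1.09), C1qc (1.97), Cd36 (1.00), Lgals3 (1.18), Lpl (1.11), H2-Ab1 (1.65), H2-Eb1 (1.69) and Cd74 (1.62). The last ratios that turned by that depth were those of H2-Aa (1.37), Cd59a (2.35), C1ra (1.49), C2 (1.87), Cdkn1a (0.743), Igfbp7 (1.11), Igfbp4 (1.35), Bnip3 (0.562), Ldha (0.919) and Pkm (0.800). Without outer bins that touch a bin that was not kept, the ratio that turned was that of Upk1b (0.790). With equal weight for each bin, the ratio that turned was that of Cd59a (1.002). With each bin thinned to 500 counts, the ratios that turned were those of Cldn5 (1.25), Cd59a (1.70), C1ra (1.57) and Igfbp5 (1.1). Inhbb (1.004) turned when the quadrant of high x and high y was left out. Without the quadrant of low x and high y, ratios on the other side were those of the B and plasma list (0.640), Lhcgr (1.19), Hsd17b7 (1.11) and Sc5d (1.08). Without the quadrant of high x and low y, ratios on the other side were those of the oocyte list (1.50), Nr5a2 (0.921), Fst (0.922), Des (1.05), Cldn5 (1.12), Cd36 (1.20), Cd59a (1.03), C1ra (1.15), Igfbp4 (1.04) and Bnip3 (0.853). Without bins holding at least 10 Adamts1 counts, the ratios that turned were those of Inhba (0.562), Cd59a (1.12) and Bnip3 (0.953). With bins ranked by depth from the outer border, enclosed gaps filled, the ratios that turned were those of the oocyte list (1.87), the B and plasma list (0.409), the mast list (1.26), Dcn (1.099), Cd59a (1.07), C1ra (1.11) and Igfbp5 (1.45). For each of these the cause was not tested, apart from what the alternative itself changed. A ratio could not be given in 2 cases, where the inner area held no count.

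Counts of genes at least 1.5-fold higher and lower were 722 and 599, or 11.7% and 9.75% of 6146 measured. The number of measured genes changed between alternatives, so shares of it are given too. With the centre at the midpoint of the range the counts were 358 and 379 (5.57% and 5.89% of 6430). Without the quadrant of high x and low y they were 307 and 285 (7.15% and 6.64% of 4292). Without bins holding at least 10 Adamts1 counts they were 408 and 365 (8.55% and 7.65% of 4773). With bins thinned to 500 counts they were 164 and 98 (13.6% and 8.15% of 1203). With a minimum of 20 counts per gene they were 1304 and 1322 (13.99% and 14.18% of 9322). With a minimum of 1 count they were 4218 and 4418 (24.65% and 25.82% of 17113). With TMM scaling 64.8% of the called genes were higher, against 54.7% with totals, at 874 higher and 474 lower, and ratios shifted by 0.06 on the log2 scale. The alternatives without bins apart from the tissue, without bins at the array margin, without bins holding at least 10 Adamts1 counts, without the inner bin richest in red blood cell counts and by depth from the outer border were chosen after seeing the data. No paired analysis was possible because each age has 1 section and the labels give no shared replicate number. Precision is limited by 1 section, by its unequal quadrants and by counts per gene.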

Other observations

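Inside the distance that bounded the inner area, 23 bins with counts fell under the minimum of 500 and were left out of it, with 7182 counts in all. They held 11 counts of the macrophage list, 1532 CPM (765 to 2740), 11 of the MHC class II list and 22 of the list linked to foamy or giant macrophages, 3063 CPM (1920 to 4638). The surface epithelium list had 1 count in them, and the red blood cell list none, which allows up to 514 CPM. The steroidogenesis list had 21999 CPM (18703 to 25710) in these bins.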
